A study of Vitis vinifera with 36 samples.

Results

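The genes of cinnamate 4-hydroxylase (C4H) and 4-coumarate:CoA ligase (4CL) were followed through the winter and summer crops of the double cropping system in ‘Muscat Hamburg’ and ‘Victoria’ grapes. The set held 6 of the 28119 genes that the deposited lists hold and was fixed by gene identifier, with earlier results of these data known. VIT_206s0004g08150, VIT_211s0065g00350 and VIT_211s0078g00290 were the C4H genes. VIT_211s0052g01090, VIT_216s0039g02040 and VIT_202s0025g03660 were the 4CL genes, of which the last is absent from the pathway table of the study and was placed with 4CL by the selection alone. De-seeded berries were measured by RNA-seq in 36 libraries, with 3 replicates in each of 12 groups formed by variety, season and stage. The stages were E-L 35 (onset of veraison), E-L 36 (veraison complete) and E-L 38 (harvest). All vines were 7 years old, were grafted on SO4 rootstock and grew under a rain shelter. The winter crop came from vines that were defoliated and pruned again in August, while the summer crop followed pruning in February. Buds were forced with hydrogen cyanamide, which the paper gives at the start of the winter season and does not name for the summer crop. Season, calendar date, pruning, bud forcing and weather therefore cannot be told apart. The berries of a replicate were pooled from many vines in 1 vintage, so a p-value here covers the spread among berry pools and not among years.

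C4H and 4CL act early in the general phenylpropanoid pathway. Phenylalanine ammonia-lyase (PAL) turns phenylalanine into cinnamic acid, C4H, a cytochrome P450 enzyme, adds a hydroxyl group to give p-coumaric acid, and 4CL joins p-coumaric acid to coenzyme A. Chalcone synthase (CHS) then uses p-coumaroyl-CoA to begin flavonoid synthesis, and stilbenes and lignin precursors draw on the same intermediates. In grape berries these branches supply anthocyanins, flavonols, tannins and the hydroxycinnamic acids of the pulp. Plants often carry several copies of each enzyme that differ in where and when they are expressed.

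The libraries held 5624449 to 18606068 estimated counts (median 10599908). Both ends of this range lay in ‘Victoria’ at E-L 35. Its summer libraries there held 15334749 to 18606068 counts and its winter libraries 5624449 to 9397265. Levels are given as FPKM, the fragments per kilobase of gene after scaling to the number of mapped fragments, which allows the copies to be set side by side. Values of 3 libraries are listed in the order of replicates 1, 2 and 3. Per library, the estimated count of VIT_206s0004g08150 was 145 to 3229 and that of VIT_211s0078g00290 was 0 to 96.59, with a median of 6.31. The counts of VIT_211s0065g00350 and VIT_211s0078g00290 were fractional in 34 libraries and their sum was whole within 0.015 in 34 of 34, so the counting had divided reads between this pair of copies and their separate levels are uncertain. Those of VIT_216s0039g02040 were fractional in 35 libraries with no single partner gene, and the remaining 3 genes had whole counts in all 36 libraries. Replicate 1 of ‘Muscat Hamburg’ summer E-L 36 and replicate 1 of ‘Victoria’ summer E-L 36 correlated better with the E-L 38 libraries of their own crop than with their own group. Results at E-L 36 that moved without these 2 libraries are given with and without them, a step chosen after the data were seen. Among the other groups, the ‘Victoria’ winter libraries of E-L 35 correlated best with ‘Victoria’ summer E-L 38 (0.936 to 0.945). So did the ‘Victoria’ summer libraries of E-L 35 (0.920 to 0.935). In ‘Muscat Hamburg’ the seasons of E-L 35 were nearest to each other (0.969 to 0.971). Whether the ‘Victoria’ berries of E-L 35 were equally ripe in both seasons was not tested. The 4 marker genes of coloured berries summed to 40.7 to 152 FPKM in ‘Muscat Hamburg’ libraries and to 6.35 to 13.2 FPKM in ‘Victoria’ libraries, and MYBA1, a regulator of anthocyanin synthesis, was at 0 to 0.630 FPKM in ‘Victoria’. Most of the ‘Victoria’ sum came from another of the 4, VIT_216s0039g02230 (UFGT), at 6.35 to 13.0 FPKM.

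**Figure D1:**
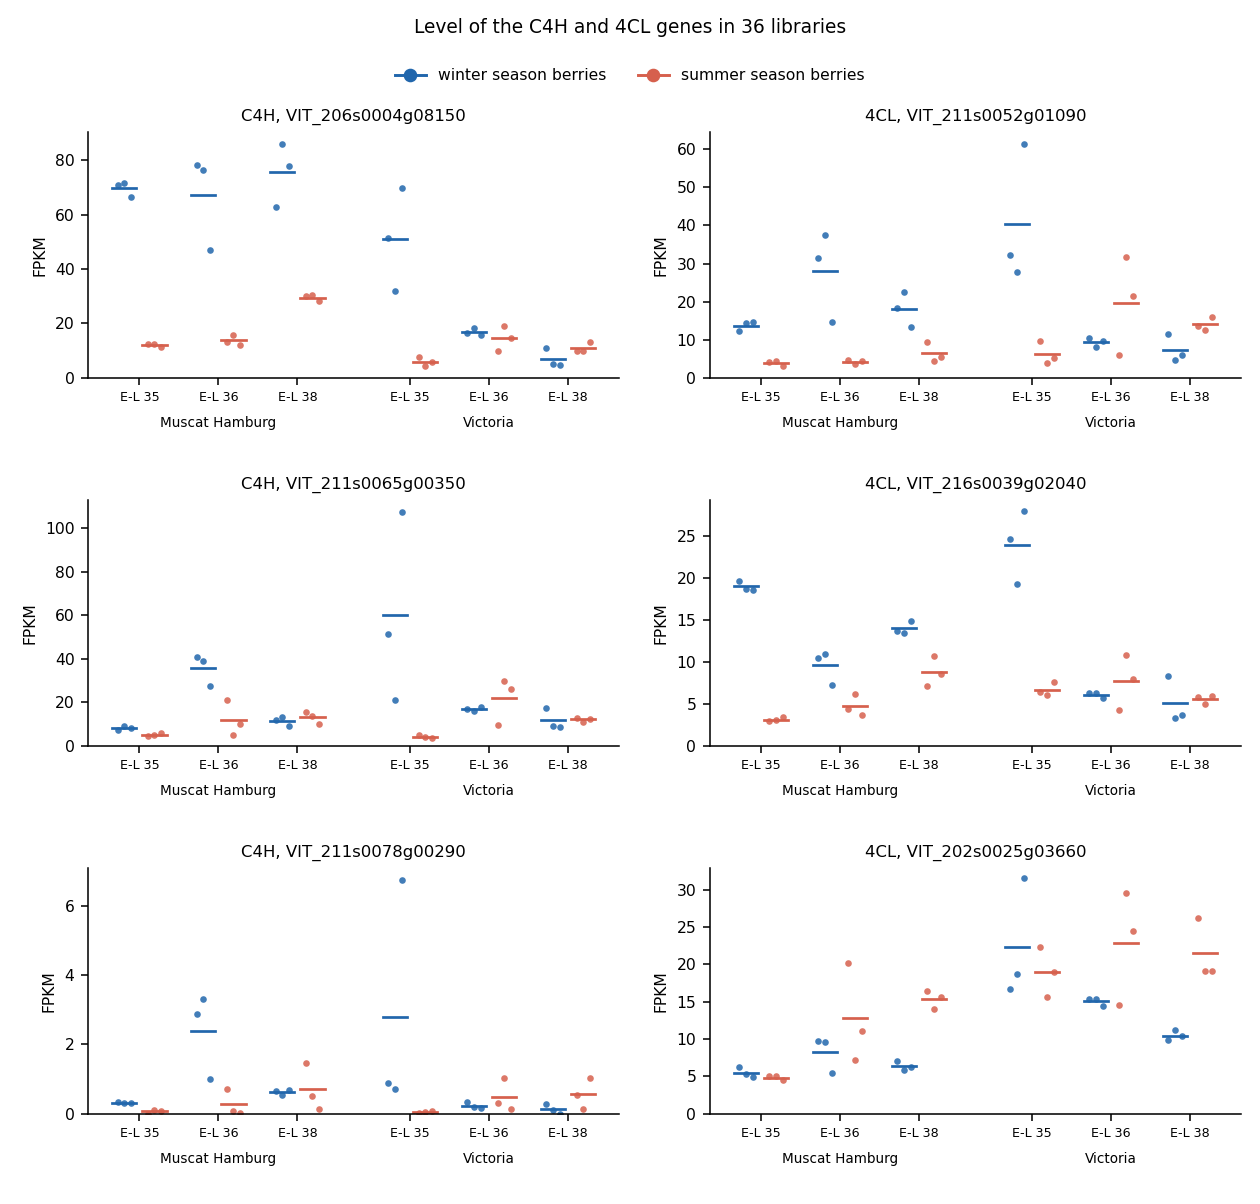
FPKM of each gene in each of the 36 libraries by variety, season and stage, with 1 panel for each gene and its own vertical scale. Points are libraries and bars are means of 3. VIT_206s0004g08150 ran over 47.0 to 86.2 FPKM in the 9 winter libraries of ‘Muscat Hamburg’, while the highest means of VIT_211s0065g00350, VIT_211s0078g00290, VIT_211s0052g01090 and VIT_216s0039g02040 belonged to ‘Victoria’ winter berries at E-L 35.

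The first comparison asked how the winter season berries differed from the summer season berries of the same variety and stage. In ‘Muscat Hamburg’ 3 of 6 genes were called higher in winter at E-L 35, 4 at E-L 36 and 2 at E-L 38, where 1 was called lower. In ‘Victoria’ 5 of 6 were called higher in winter at E-L 35, whereas none was at E-L 36 or E-L 38, where 1 and 2 were called lower. A gene was called when the Benjamini-Hochberg adjusted p of edgeR's quasi-likelihood test across 19736 genes was at most 0.05 and the fold change was at least 2. Log2 fold changes are winter over summer and carry a standard error (SE). A bulk berry holds many cell types, so a lower level may be fewer cells of a type or less RNA per cell, and these cannot be told apart.

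The counts were read against the share of all genes called in the same direction. In ‘Muscat Hamburg’ at E-L 35, 3 of 6 genes were called higher, against 4.15% of all genes, and 0 were called lower, against 1.86%. At E-L 36 the count was 4 higher, against 9.80% of all genes, and 0 lower, against 8.97%. At E-L 38 it was 2 higher and 1 lower, where 8.90% and 11.1% of all genes were called in these directions. The share of the genes called higher in ‘Muscat Hamburg’ was thus above that of all genes at each stage. The study chose its pathway genes on these same samples, and all of the members but VIT_202s0025g03660 are among them. The comparison with all genes, here and in ‘Victoria’, is therefore not independent evidence of a season effect. The same limit holds for the later counts of differences in the season effect between varieties or stages.

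In ‘Victoria’ at E-L 35, 5 of 6 genes were called higher, against 8.44% of all genes, and 0 lower, against 8.87%. At E-L 36 the count was 0 higher, against 9.96% of all genes, and 1 lower, against 13.6%. At E-L 38 it was 0 higher, against 10.9% of all genes, and 2 lower, against 15.9%. For the counts of 0 in edgeR, 0 genes passed an unadjusted p of 0.05 in the same direction, and DESeq2 and limma also called 0, except that 1 gene of ‘Muscat Hamburg’ at E-L 36 had an unadjusted p under 0.05 on the lower side. The median log2 fold change of the 6 genes in ‘Muscat Hamburg’ was 1.89 at E-L 35, 1.85 at E-L 36 and 0.30 at E-L 38. In ‘Victoria’ it was 3.04, -0.43 and -0.87 at the same stages. The median over all genes lay between -0.03 and 0.00 in all 6 comparisons.

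VIT_206s0004g08150, the C4H gene with the highest median level over the 36 libraries, rose in winter at every stage of ‘Muscat Hamburg’ and at the first stage of ‘Victoria’. In ‘Muscat Hamburg’ at E-L 35 it had 70.9, 71.8 and 66.5 FPKM in the winter berries, against 12.4, 12.4 and 11.2 FPKM in the summer berries. At E-L 36 the winter libraries held 78.5, 76.3 and 47.0 FPKM, against 13.1, 15.9 and 12.2 FPKM in summer. At E-L 38 they held 62.7, 86.2 and 77.9 FPKM, against 30.0, 30.5 and 28.1 FPKM in summer. The seasons did not overlap at any of these stages, and the lowest winter library was replicate 3 at E-L 36, which was also the lowest of its group for the other 5 genes. The log2 fold change was 2.49 (SE 0.26, adjusted p = 1.44e-07) at E-L 35, 2.19 (SE 0.25, adjusted p = 9.26e-08) at E-L 36 and 1.42 (SE 0.25, adjusted p = 2.97e-05) at E-L 38.

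In ‘Victoria’ the same C4H gene VIT_206s0004g08150 had 51.4, 32.0 and 69.8 FPKM in the winter berries at E-L 35, against 7.73, 4.24 and 5.74 FPKM in the summer berries. Once veraison was complete it had 16.4, 18.3 and 15.6 FPKM in winter, against 9.97, 19.1 and 14.5 FPKM in summer. By E-L 38 the gene stood at 11.1, 5.21 and 4.79 FPKM in winter, against 9.85, 9.96 and 13.1 FPKM in summer. The seasons were apart at E-L 35 and overlapped at the other stages. The gene rose in winter at E-L 35 by 3.28 on the log2 scale (SE 0.27, adjusted p = 4.52e-10). Its log2 fold change was 0.26 (SE 0.25, adjusted p = 0.393) at E-L 36 and -0.69 (SE 0.26, adjusted p = 0.0261) at E-L 38, where the fold change was under 2. Without winter replicate 1 of ‘Victoria’ at E-L 38 it was -1.09 and called, and fits without 1 library ran from -1.09 to -0.50.

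VIT_211s0065g00350, the second C4H gene, rose in winter at E-L 36 of ‘Muscat Hamburg’ and at E-L 35 of ‘Victoria’. In ‘Muscat Hamburg’ at E-L 35 it had 7.26, 9.12 and 8.20 FPKM in winter berries, against 4.35, 4.88 and 5.77 FPKM in summer berries. At E-L 36 it had 40.7, 38.7 and 27.5 FPKM in winter, against 20.9, 4.85 and 9.79 FPKM in summer. At harvest it had 11.7, 13.4 and 9.21 FPKM in winter, against 15.6, 13.7 and 10.2 FPKM in summer. The seasons overlapped at harvest, and the high summer value at E-L 36 came from replicate 1, 1 of the 2 libraries that stood nearer to E-L 38. The fitted log2 fold change was 0.67 (SE 0.44, adjusted p = 0.327) at E-L 35, 1.51 (SE 0.42, adjusted p = 0.00479) at E-L 36 and -0.14 (SE 0.42, adjusted p = 0.818) at E-L 38. Without summer replicate 1 of ‘Muscat Hamburg’ at E-L 36 the log2 value was 2.21 and the call held.

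The winter berries of ‘Victoria’ at E-L 35 held the highest mean of VIT_211s0065g00350 among the 12 groups and also its widest spread. The 3 winter libraries had 51.4, 21.0 and 108 FPKM, against 5.15, 3.89 and 3.55 FPKM in summer. Replicate 3 was the highest of that winter group for all 6 genes. At E-L 36 the gene had 17.0, 16.2 and 17.8 FPKM in winter, against 9.70, 29.6 and 26.1 FPKM in summer, and at E-L 38 it had 17.3, 9.28 and 8.49 FPKM in winter, against 12.8, 10.95 and 12.5 FPKM in summer. Winter exceeded summer in every library at E-L 35 and the seasons overlapped afterwards. The log2 fold change at E-L 35 was 4.01 (SE 0.46, adjusted p = 1.25e-07), and 3.27 without winter replicate 3 of ‘Victoria’ at E-L 35, with the call kept. It was -0.30 (SE 0.41, adjusted p = 0.567) at E-L 36 and -0.09 (SE 0.43, adjusted p = 0.872) at E-L 38.

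VIT_211s0078g00290, the C4H copy that shared reads with VIT_211s0065g00350, was near the limit of detection in many groups. In ‘Muscat Hamburg’ at E-L 36 it had 2.88, 3.30 and 0.99 FPKM in winter, against 0.72, 0.09 and 0.03 FPKM in summer. All winter libraries exceeded all summer libraries there, and summer replicate 1 was again the highest of its group. The fitted log2 fold change was 2.97 (SE 0.86, adjusted p = 0.00629), and 4.79 without that library. At E-L 35 the winter libraries had 0.33, 0.31 and 0.31 FPKM, against 0, 0.12 and 0.09 FPKM in summer, with summed estimated counts of 18 in winter and 5 in summer. The ratio of these sums per library size was 4.75 with a 95% counting interval of 1.70 to 16.4, but the difference was not called (adjusted p = 0.277). At E-L 38 the gene had 0.65, 0.54 and 0.68 FPKM in winter, against 1.46, 0.51 and 0.15 FPKM in summer, and the seasons overlapped (log2 fold change -0.14, SE 0.84, adjusted p = 0.913).

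In ‘Victoria’ at E-L 35 VIT_211s0078g00290 had 0.89, 0.72 and 6.74 FPKM in winter, against 0.02, 0.06 and 0.09 FPKM in summer, where no library reached 3 counts. The summed estimated count was 120 in winter and 5 in summer, a ratio per library size of 60.0 with an exact 95% interval of 25.0 to 188 that covers counting error only. The gene was called higher in winter (edgeR, adjusted p = 4.60e-05), and its fitted log2 fold change of 5.74 was 3.97 without winter replicate 3 of ‘Victoria’, whose level was several times that of the other libraries. On the log2(FPKM + 1) scale of limma the value was 1.47 and on log2(FPKM + 0.1) it was 3.52, with the call kept in both. At E-L 36 the values were 0.33, 0.2 and 0.16 FPKM in winter, against 0.31, 1.02 and 0.15 FPKM in summer, and at E-L 38 they were 0.27, 0.12 and 0 FPKM in winter, against 0.54, 0.14 and 1.04 FPKM in summer. Neither stage gave a call, with an adjusted p of 0.478 and 0.0918. When the counts of the 2 copies that share reads were added, the sum differed on the log2 scale by 1.55 in ‘Muscat Hamburg’ at E-L 36 and by 4.05 in ‘Victoria’ at E-L 35, and it was called in the same comparisons as VIT_211s0065g00350.

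VIT_211s0052g01090, a 4CL gene, rose in winter at every stage of ‘Muscat Hamburg’. It had 12.2, 14.4 and 14.6 FPKM in the winter berries at E-L 35, against 4.16, 4.48 and 2.96 FPKM in the summer berries. At E-L 36 it had 31.6, 37.6 and 14.6 FPKM in winter, against 4.74, 3.49 and 4.35 FPKM in summer. At E-L 38 it had 18.3, 22.6 and 13.4 FPKM in winter, against 9.46, 4.34 and 5.55 FPKM in summer. No winter library fell to the level of a summer library at any stage. The log2 fold change was 1.71 (SE 0.43, adjusted p = 0.00552) at E-L 35, 2.55 (SE 0.43, adjusted p = 2.35e-05) at E-L 36 and 1.56 (SE 0.42, adjusted p = 0.00307) at E-L 38.

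In ‘Victoria’ VIT_211s0052g01090 was called higher in winter at E-L 35 and lower at both later stages. At E-L 35 it had 32.3, 27.7 and 61.5 FPKM in winter, against 9.64, 3.85 and 5.16 FPKM in summer (log2 fold change 2.80, SE 0.42, adjusted p = 5.58e-06). The berries of E-L 36 held 10.5, 8.11 and 9.71 FPKM in winter, against 5.96, 31.7 and 21.4 FPKM in summer, where replicate 1 was low and replicate 2 was the highest of its group for all 6 genes. The berries of E-L 38 held 11.5, 4.68 and 6.01 FPKM in winter, against 13.6, 12.7 and 15.9 FPKM in summer. The seasons overlapped at E-L 36 and were apart at E-L 38. Log2 fold changes there were -1.0 (SE 0.41, adjusted p = 0.0397) and -1.08 (SE 0.42, adjusted p = 0.0293). Both calls lay near the threshold, both ended under limma on log2 FPKM values, and the first also ended in the fit of only the libraries compared (-1.03).

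The E-L 36 call of VIT_211s0052g01090 in ‘Victoria’ ended without any 1 of 5 of its 6 libraries. The log2 value was -0.51 without summer replicate 2, -0.93 without summer replicate 3, and -1.05, -0.93 and -1.04 without winter replicates 1, 2 and 3. Without both E-L 36 summer libraries that stood nearer to E-L 38 it was -1.44 and the call held. The E-L 38 call ended without summer replicate 1 (-1.10), summer replicate 3 (-0.98), winter replicate 2 (-0.85) or winter replicate 3 (-0.99).

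VIT_216s0039g02040, the second 4CL gene, showed close agreement among replicates at E-L 35. In ‘Muscat Hamburg’ it had 19.6, 18.7 and 18.6 FPKM in winter at this stage, against 2.95, 3.01 and 3.38 FPKM in summer (log2 fold change 2.54, SE 0.25, adjusted p = 1.01e-07). At E-L 36 it had 10.5, 10.96 and 7.19 FPKM in winter, against 4.35, 6.14 and 3.65 FPKM in summer, and at E-L 38 it had 13.6, 13.5 and 14.9 FPKM in winter, against 7.06, 10.7 and 8.53 FPKM in summer. Winter libraries stood above summer libraries at all 3 stages. The later log2 fold changes, 0.92 (SE 0.25, adjusted p = 0.00381) and 0.73 (SE 0.24, adjusted p = 0.0136), were under the fold condition and were not called. The E-L 36 value was 1.01 and called with library size alone or with limma on log2(FPKM + 0.1), 1.16 without summer replicate 2 and 1.02 without winter replicate 3. Its fits without 1 library ran from 0.75 to 1.16.

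In ‘Victoria’ VIT_216s0039g02040 had 24.6, 19.3 and 28.0 FPKM in winter at E-L 35, against 6.43, 6.02 and 7.54 FPKM in summer, and rose by 2.00 on the log2 scale (SE 0.24, adjusted p = 2.69e-07). Once veraison was complete it had 6.33, 6.24 and 5.70 FPKM in winter, against 4.27, 10.8 and 7.93 FPKM in summer. The berries of E-L 38 held 8.34, 3.26 and 3.63 FPKM in winter, against 5.76, 4.97 and 5.86 FPKM in summer. The seasons overlapped at both later stages, with log2 fold changes of -0.27 (SE 0.25, adjusted p = 0.388) and -0.18 (SE 0.26, adjusted p = 0.573).

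VIT_202s0025g03660, the third 4CL gene, was the only 1 of the 6 with no call higher in winter in any of the 6 comparisons. In ‘Muscat Hamburg’ at E-L 35 it had 6.22, 5.36 and 4.87 FPKM in winter, against 4.98, 4.99 and 4.55 FPKM in summer (log2 fold change 0.13, SE 0.28, adjusted p = 0.804). At E-L 36 it had 9.77, 9.65 and 5.42 FPKM in winter, against 20.2, 7.14 and 11.1 FPKM in summer, with summer replicate 1 far above the others. The fitted log2 fold change of -0.72 (SE 0.27, adjusted p = 0.0308) was under the fold condition. It was -0.22 without the 2 E-L 36 summer libraries, and -1.01 and called without summer replicate 2 of ‘Muscat Hamburg’. At E-L 38 it had 7.10, 5.79 and 6.21 FPKM in winter, against 16.4, 14.0 and 15.7 FPKM in summer. Every winter library was under every summer library at this stage, and the gene was called lower in winter (log2 fold change -1.21, SE 0.27, adjusted p = 0.000620).

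In ‘Victoria’ VIT_202s0025g03660 had 16.7, 18.7 and 31.5 FPKM in winter at E-L 35, against 22.4, 15.7 and 18.9 FPKM in summer, and 15.3, 15.3 and 14.4 FPKM in winter at E-L 36, against 14.5, 29.5 and 24.5 FPKM in summer. The seasons overlapped at both stages, with log2 fold changes of 0.39 (SE 0.26, adjusted p = 0.228) and -0.55 (SE 0.26, adjusted p = 0.0789). At harvest the values were 9.83, 11.2 and 10.4 FPKM in winter, against 26.1, 19.1 and 19.2 FPKM in summer. All winter libraries were lower there, and the log2 fold change was -1.05 (SE 0.27, adjusted p = 0.00145). That call ended when the fold change came under 2 without summer replicate 1 (-0.89) or winter replicate 1 (-0.96) of ‘Victoria’ at E-L 38, and with limma on log2(FPKM + 1) (-0.96).

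**Figure D2:**
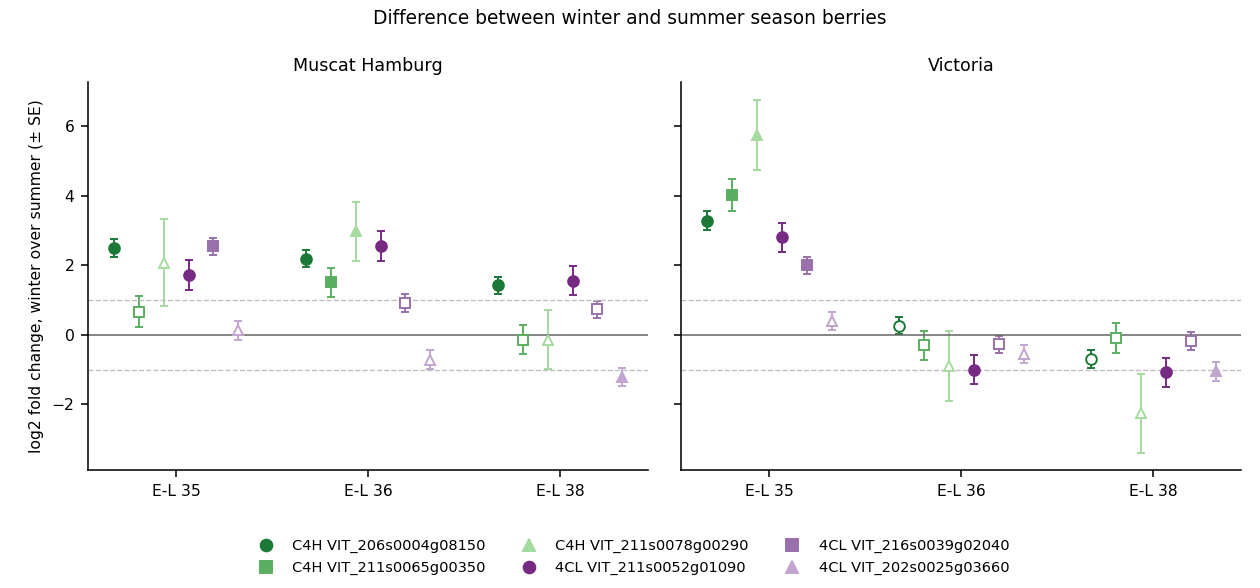
Log2 fold change of winter over summer for each gene at each stage, ‘Muscat Hamburg’ left and ‘Victoria’ right. Bars are SE, filled points were called and dashed lines mark a fold change of 2. The points of ‘Victoria’ lay above the upper line for 5 genes at E-L 35 and around or under 0 at the later stages. The fitted value of VIT_211s0078g00290 at E-L 35 of ‘Victoria’ rests on a summer group with under 3 counts in each library.

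The design also allowed the season effect of ‘Muscat Hamburg’ to be set against that of ‘Victoria’ at each stage. At E-L 36 the season effect was larger in ‘Muscat Hamburg’ than in ‘Victoria’ for 5 of 6 genes, against 6.24% of all genes. The difference of log2 fold changes, ‘Muscat Hamburg’ minus ‘Victoria’, was 1.93 (SE 0.35, adjusted p = 0.000292) for VIT_206s0004g08150 and 3.56 (SE 0.59, adjusted p = 9.71e-05) for VIT_211s0052g01090. It was 1.81 (SE 0.59, adjusted p = 0.0301) for VIT_211s0065g00350, 3.86 (SE 1.32, adjusted p = 0.0396) for VIT_211s0078g00290 and 1.19 (SE 0.35, adjusted p = 0.0178) for VIT_216s0039g02040. For VIT_202s0025g03660 it was -0.17 (SE 0.37, adjusted p = 0.802). At E-L 38 the effect was larger in ‘Muscat Hamburg’ for 2 genes, against 4.74% of all genes, with 2.11 (SE 0.36, adjusted p = 0.000151) for VIT_206s0004g08150 and 2.64 (SE 0.59, adjusted p = 0.00237) for VIT_211s0052g01090. The remaining genes gave 2.12 for VIT_211s0078g00290 (adjusted p = 0.340), -0.04 for VIT_211s0065g00350 (adjusted p = 0.982), 0.92 for VIT_216s0039g02040 (adjusted p = 0.0729) and -0.16 for VIT_202s0025g03660 (adjusted p = 0.832). VIT_216s0039g02040 was called without winter replicate 1 of ‘Victoria’ (1.38) or summer replicate 2 of ‘Muscat Hamburg’ (1.11). Its fits without 1 library ran from 0.70 to 1.38.

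Several of the E-L 36 calls between varieties ended in fits that left out 1 library. For VIT_211s0078g00290 and VIT_211s0065g00350 this held for most of the libraries compared. The call of VIT_211s0078g00290 ended in 8 of the 12 fits that left out 1 of the libraries compared, with values of 2.91 to 4.19, and it was 5.69 without summer replicate 1 of ‘Muscat Hamburg’. The call of VIT_211s0065g00350 ended in 9 of 12, with values of 1.44 to 1.84, and it was 2.52 without the same library. The call of VIT_216s0039g02040 ended without summer replicate 2 of ‘Victoria’ (0.90) or summer replicate 3 of ‘Muscat Hamburg’ (1.03). All 3 calls ended in the fit of only the libraries compared (3.88, 1.83 and 1.21). Without the 2 E-L 36 summer libraries nearer to E-L 38, all 5 calls held, with 2.10 for VIT_206s0004g08150, 2.87 for VIT_211s0065g00350, 5.94 for VIT_211s0078g00290, 4.10 for VIT_211s0052g01090 and 1.42 for VIT_216s0039g02040.

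At E-L 35 the order was the other way for 1 gene, against 3.73% of all genes called lower. The season effect on VIT_211s0065g00350 was the smaller in ‘Muscat Hamburg’, with a difference of -3.34 (SE 0.62, adjusted p = 0.000459), and of -2.61 without winter replicate 3 of ‘Victoria’ with the call kept. The other 5 genes gave no call, with adjusted p of 0.114 for VIT_206s0004g08150 (-0.79), 0.194 for VIT_211s0078g00290 (-3.67), 0.198 for VIT_211s0052g01090 (-1.09), 0.294 for VIT_216s0039g02040 (0.54) and 0.684 for VIT_202s0025g03660 (-0.27). The value of VIT_206s0004g08150 passed the threshold without summer replicate 1 (-1.04) or winter replicate 2 (-1.05) of ‘Victoria’. Its fits without 1 library ran from -1.05 to -0.49.

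The season effect was then set against that at E-L 35 within a variety. In ‘Victoria’ the winter excess was smaller at both later stages for most of the genes. The effect at E-L 36 was below that at E-L 35 for 5 of 6 genes, against 12.7% of all genes, and the effect at E-L 38 for 6 of 6, against 14.9%. For VIT_206s0004g08150 the difference was -3.02 (SE 0.36, adjusted p = 2.15e-07) at E-L 36 and -3.97 (SE 0.37, adjusted p = 2.83e-09) at E-L 38. For VIT_211s0065g00350 it was -4.31 (SE 0.61, adjusted p = 2.89e-06) and -4.10 (SE 0.62, adjusted p = 5.23e-06) at these stages, and -3.58 and -3.37 without winter replicate 3 of ‘Victoria’ at E-L 35. For VIT_211s0052g01090 it was -3.80 (SE 0.58, adjusted p = 8.37e-06) and -3.88 (SE 0.59, adjusted p = 5.73e-06), and for VIT_216s0039g02040 it was -2.27 (SE 0.35, adjusted p = 8.43e-06) and -2.18 (SE 0.35, adjusted p = 1.37e-05). For VIT_202s0025g03660 it was -0.94 (SE 0.37, adjusted p = 0.0416), under the fold condition, at E-L 36 and -1.44 (SE 0.37, adjusted p = 0.00244) at E-L 38. The E-L 36 value was -1.19 and called without the 2 summer libraries. In fits without 1 library it ran from -1.17 to -0.59, and 4 of these fits called it (-1.09 to -1.17).

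VIT_211s0078g00290 was also called in both ‘Victoria’ contrasts, with fitted values of -6.63 (adjusted p = 0.000580) and -8.00 (adjusted p = 9.46e-05) that rest on the summer group of E-L 35 with under 3 counts in each library. The E-L 36 value was -5.68 without summer replicate 2 at E-L 36 and -4.87 without winter replicate 3 at E-L 35. The E-L 38 value was -7.24 without summer replicate 3 and -8.97 without winter replicate 1 of that stage, and -6.23 without winter replicate 3 at E-L 35. On the log2(FPKM + 1) scale of limma the value at E-L 36 was -1.71, that at E-L 38 was -1.92, and on log2(FPKM + 0.1) they were -4.12 and -5.00. The calls held in each of these cases.

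In ‘Muscat Hamburg’ the effect at E-L 36 was below that at E-L 35 for 1 of 6 genes, against 6.71% of all genes, which was VIT_216s0039g02040 (-1.62, SE 0.35, adjusted p = 0.00133). The effect at E-L 38 was below that at E-L 35 for 3 of 6, against 8.85%. The differences were -1.80 (SE 0.35, adjusted p = 0.000266) for VIT_216s0039g02040, -1.33 (SE 0.39, adjusted p = 0.0115) for VIT_202s0025g03660 and -1.07 (SE 0.34, adjusted p = 0.0209) for VIT_206s0004g08150, the last of which lost its call without winter replicate 1 of E-L 38 (-0.97). Without the 2 summer libraries VIT_211s0065g00350 had a larger effect at E-L 36 than at E-L 35 by 1.55, a call that the full set did not give (0.84). Its fits without 1 library ran from 0.47 to 1.55. VIT_202s0025g03660 was not called at E-L 36 minus E-L 35 in the full fit (-0.85). It was called without summer replicate 2 of E-L 36 (-1.13), and its fits without 1 library ran from -1.13 to -0.35.

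The course of ripening differed between the crops. In the winter berries of ‘Victoria’ 5 of 6 genes fell between E-L 35 and E-L 36, against 12.2% of all genes. The log2 fold change of E-L 36 over E-L 35 was -1.48 (SE 0.25, adjusted p = 2.37e-05) for VIT_206s0004g08150, -1.98 (SE 0.41, adjusted p = 0.000272) for VIT_211s0052g01090 and -1.84 (SE 0.25, adjusted p = 9.17e-07) for VIT_216s0039g02040. It was -1.70 (SE 0.42, adjusted p = 0.00152) for VIT_211s0065g00350 and -3.40 (SE 0.88, adjusted p = 0.00256) for VIT_211s0078g00290. The last 2 calls ended without winter replicate 3 of ‘Victoria’ at E-L 35, with -0.97 and -1.63. From E-L 36 to E-L 38 VIT_206s0004g08150 fell further by 1.32 on the log2 scale (SE 0.26, adjusted p = 0.000705), as 1 of 6 genes, against 4.18% of all genes.

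The summer berries of ‘Victoria’ moved the other way over the same interval, with 4 of 6 genes higher at E-L 36 than at E-L 35, against 7.08% of all genes. The fitted log2 fold change was 1.54 (SE 0.26, adjusted p = 2.20e-05) for VIT_206s0004g08150, 2.61 (SE 0.44, adjusted p = 2.75e-05) for VIT_211s0065g00350 and 1.82 (SE 0.41, adjusted p = 0.000690) for VIT_211s0052g01090. VIT_211s0078g00290 was called (adjusted p = 0.0232), with summed counts of 28 at E-L 36, against 5 at E-L 35, and a ratio per library size of 10.7 (95% counting interval 4.09 to 35.6). That call ended without summer replicate 1 (3.01) or 2 (3.31) of E-L 35 or replicate 2 of E-L 36 (2.29), and with limma (0.46 on log2(FPKM + 1) and 1.66 on log2(FPKM + 0.1)), against a fitted log2 value of 3.23 with all libraries. From E-L 36 to E-L 38 none of the 6 genes was called by edgeR, DESeq2 or limma, 0 had an unadjusted p under 0.05, and 0.218% of all genes were called either way. Without the 2 summer libraries VIT_211s0065g00350 was called lower at E-L 38 than at E-L 36 (-1.15). It was at -0.81 in the full fit, and fits without 1 library ran from -1.15 to -0.55.

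In the winter berries of ‘Muscat Hamburg’ 3 of 6 genes were higher at E-L 36 than at E-L 35, against 5.60% of all genes. VIT_211s0065g00350 rose by 2.20 (SE 0.43, adjusted p = 0.000219), VIT_211s0078g00290 by 3.04 (SE 0.85, adjusted p = 0.00607) and VIT_211s0052g01090 by 1.17 (SE 0.40, adjusted p = 0.0215) on the log2 scale. The call of VIT_211s0052g01090 ended without replicate 1, 2 or 3 of E-L 35 (1.12, 1.19 and 1.21) or replicate 1 or 2 of E-L 36 (1.09 and 0.96), and with limma (0.88 and 0.92). VIT_216s0039g02040 went the other way, with 9.55 FPKM at E-L 36 and 19.0 FPKM at E-L 35 on average (log2 fold change -0.90, SE 0.24, adjusted p = 0.00379). It was under the fold condition, and limma on log2(FPKM + 0.1) called it (-1.01). VIT_206s0004g08150 differed little, by 0.03 (SE 0.24, adjusted p = 0.940). From E-L 36 to E-L 38 VIT_211s0065g00350 fell by 1.62 (SE 0.42, adjusted p = 0.00514), as 1 of 6 genes, against 6.57% of all genes. VIT_211s0078g00290 was called lower in the same interval (-1.95) when the 2 summer libraries were left out, although neither of them enters this contrast, in the fit of only the libraries compared (-1.96) and without replicate 3 of E-L 36 (-2.27).

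In the summer berries of ‘Muscat Hamburg’ 2 of 6 genes were higher at E-L 36 than at E-L 35, against 3.85% of all genes. VIT_202s0025g03660 rose by 1.52 (SE 0.27, adjusted p = 0.000195), and by 1.03 without the 2 summer libraries. VIT_211s0065g00350 rose by 1.36 (SE 0.44, adjusted p = 0.0238), a call that ended without replicate 1 (1.26) or 2 (1.36) of E-L 35 or replicate 1 of E-L 36 (0.66), with limma (0.90 and 0.99) and in the fit of only the libraries compared (1.37). From E-L 36 to E-L 38 none of the 6 was called by edgeR or DESeq2, where 1.15% of all genes were called either way. In that interval 2 genes had an unadjusted p under 0.05 on the higher side, and limma called 1. VIT_206s0004g08150 had a log2 fold change of 0.97 (adjusted p = 0.0320), just under the fold condition, and was called with limma (1.06 and 1.11) and with library size alone (1.10).

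The varieties were also compared within a season and stage, as ‘Muscat Hamburg’ over ‘Victoria’. VIT_206s0004g08150 was higher in ‘Muscat Hamburg’ in 4 of the 6 comparisons. In the winter berries the log2 fold change was 2.03 (SE 0.25, adjusted p = 3.17e-07) at E-L 36 and 3.54 (SE 0.27, adjusted p = 5.76e-11) at E-L 38. In the summer berries it was 1.31 (SE 0.26, adjusted p = 0.000133) at E-L 35 and 1.43 (SE 0.25, adjusted p = 4.25e-05) at E-L 38. The summer call at E-L 35 ended with limma on log2(FPKM + 1) (0.94), where the fold change was under 2. The winter harvest thus held a mean of 75.6 ± 11.9 FPKM (SD, n = 3) in ‘Muscat Hamburg’ and 7.03 ± 3.53 FPKM (SD, n = 3) in ‘Victoria’, the largest fitted difference between the varieties among the 6 genes.

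At E-L 35 of the winter crop 4 of 6 genes were called lower in ‘Muscat Hamburg’, against 8.25% of all genes. The log2 fold change was -2.80 (SE 0.44, adjusted p = 1.64e-05) for VIT_211s0065g00350, -1.95 (SE 0.28, adjusted p = 4.13e-06) for VIT_202s0025g03660, -1.54 (SE 0.40, adjusted p = 0.00415) for VIT_211s0052g01090 and -3.15 (SE 0.86, adjusted p = 0.00589) for VIT_211s0078g00290. Without winter replicate 3 of ‘Victoria’ the calls of VIT_211s0052g01090 (-1.08) and VIT_211s0078g00290 (-1.38) ended, and VIT_211s0065g00350 was at -2.07. At E-L 36 of the winter crop 4 of 6 genes were higher in ‘Muscat Hamburg’, against 8.37% of all genes. Besides VIT_206s0004g08150 these were VIT_211s0078g00290 (3.28, SE 0.87, adjusted p = 0.00415), VIT_211s0052g01090 (1.62, SE 0.41, adjusted p = 0.00247) and VIT_211s0065g00350 (1.10, SE 0.41, adjusted p = 0.0376). The call of VIT_211s0065g00350 ended without replicate 1, 2 or 3 of ‘Victoria’ (1.10, 1.07 and 1.14) or replicate 1 or 2 of ‘Muscat Hamburg’ (1.04 and 1.07), and with limma (1.01 and 1.05).

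At E-L 38 of the winter crop 3 of 6 genes were higher in ‘Muscat Hamburg’, against 6.91% of all genes. VIT_216s0039g02040 was at 1.57 (SE 0.25, adjusted p = 2.00e-05) and VIT_211s0052g01090 at 1.42 (SE 0.42, adjusted p = 0.0109), a call that ended without replicate 2 of ‘Muscat Hamburg’ (1.22) or replicate 2 of ‘Victoria’ (1.18). In the summer crop at E-L 35, 1 of 6 genes was higher in ‘Muscat Hamburg’, against 6.76% of all genes, and 1 was lower, against 12.2%. The lower gene was VIT_202s0025g03660 (-1.68, SE 0.27, adjusted p = 1.14e-05), and VIT_216s0039g02040 (-0.80, under the fold condition) was called lower with library size alone (-1.09) and with limma on log2(FPKM + 0.1) (-1.07). At E-L 36 of the summer crop 1 gene was lower in ‘Muscat Hamburg’, against 10.3% of all genes, which was VIT_211s0052g01090 (-1.94, SE 0.43, adjusted p = 0.000669). Without the 2 summer libraries VIT_211s0065g00350 (-1.76) and VIT_202s0025g03660 (-1.39) were called lower as well, and without summer replicate 1 of ‘Muscat Hamburg’ alone they were called at -1.41 and -1.16. Their values in the full fit were -0.70 and -0.67. Fits without 1 library ran from -1.41 to -0.33 for the first gene and from -1.16 to -0.38 for the second. At E-L 38, 1 gene was higher, against 7.56% of all genes, and VIT_211s0052g01090 was lower, as 1 gene against 10.7% of all genes (-1.22, SE 0.42, adjusted p = 0.0195). The last call ended without replicate 2 (-1.02) or 3 (-1.12) of ‘Muscat Hamburg’ or replicate 3 of ‘Victoria’ (-1.12), and with limma on log2(FPKM + 1) without the filter (-1.07).

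Summer berries at E-L 35 had the lowest mean of the 12 groups for all 6 genes, in ‘Muscat Hamburg’ for the 4CL genes and in ‘Victoria’ for the C4H genes. The mean of VIT_206s0004g08150 was highest in ‘Muscat Hamburg’ winter berries at E-L 38 (75.6 ± 11.9 FPKM, SD, n = 3) and lowest at 5.90 ± 1.75 FPKM. The means of VIT_211s0065g00350 (60.0 ± 43.9 FPKM), VIT_211s0078g00290 (2.78 ± 3.43 FPKM), VIT_211s0052g01090 (40.5 ± 18.3 FPKM) and VIT_216s0039g02040 (23.9 ± 4.39 FPKM) were highest in ‘Victoria’ winter berries at E-L 35, and their lowest means were 4.2 ± 0.843, 0.0567 ± 0.0351, 3.87 ± 0.801 and 3.11 ± 0.233 FPKM. VIT_202s0025g03660 was highest in ‘Victoria’ summer berries at E-L 36 (22.9 ± 7.64 FPKM) and lowest at 4.84 ± 0.251 FPKM. The ratio of the highest to the lowest group mean was 12.8 for VIT_206s0004g08150, 14.3 for VIT_211s0065g00350, 10.5 for VIT_211s0052g01090, 7.68 for VIT_216s0039g02040 and 4.73 for VIT_202s0025g03660. No ratio is given for VIT_211s0078g00290, whose lowest group held under 3 counts in each library. Without winter replicate 3 of ‘Victoria’ at E-L 35 the ratio was 8.62 for VIT_211s0065g00350 and 7.76 for VIT_211s0052g01090, and the highest mean of VIT_211s0078g00290 was that of ‘Muscat Hamburg’ winter berries at E-L 36 (2.39 FPKM), against 0.805 FPKM in ‘Victoria’ winter berries at E-L 35. Neighbouring groups in that order did not overlap in 2 of 11 steps for VIT_206s0004g08150, in 3 for VIT_211s0065g00350 and VIT_216s0039g02040, in 1 for VIT_211s0052g01090 and VIT_202s0025g03660, and in 0 for VIT_211s0078g00290. The groups apart for VIT_206s0004g08150 were the 4 winter groups at the top, namely those of ‘Muscat Hamburg’ and that of ‘Victoria’ at E-L 35, from the next, and that next group, ‘Muscat Hamburg’ summer berries at E-L 38, from those under it. All other neighbours in the order of VIT_206s0004g08150 overlapped in their libraries, and the highest group of each of the 6 genes overlapped the second.

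The 3 C4H genes took unequal parts of their summed level. VIT_206s0004g08150 made up 89.1 ± 1.05, 63.7 ± 1.24 and 86.1 ± 2.60 percent (mean ± SD, n = 3) of the summed FPKM of the C4H genes in the winter berries of ‘Muscat Hamburg’ at the 3 stages in turn, and 70.3 ± 4.31, 56.5 ± 19.3 and 68.4 ± 4.69 percent in its summer berries. In ‘Victoria’ it made up 49.0 ± 10.8, 49.3 ± 3.22 and 36.8 ± 1.63 percent in winter and 57.6 ± 5.11, 41.3 ± 7.61 and 46.3 ± 3.43 percent in summer. Over all libraries its share ran over 37.8% to 90.3% (median 72.2%) in ‘Muscat Hamburg’ and 35.5% to 61.2% (median 48.0%) in ‘Victoria’, so that the ranges overlapped. VIT_211s0065g00350 held most of the rest, with a median of 27.3% in ‘Muscat Hamburg’ and 51.2% in ‘Victoria’, while VIT_211s0078g00290 never passed 3.11% in ‘Muscat Hamburg’ or 3.91% in ‘Victoria’. These shares are a description with no test, and the division between the last pair is uncertain for the reads they share.

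**Figure D3:**
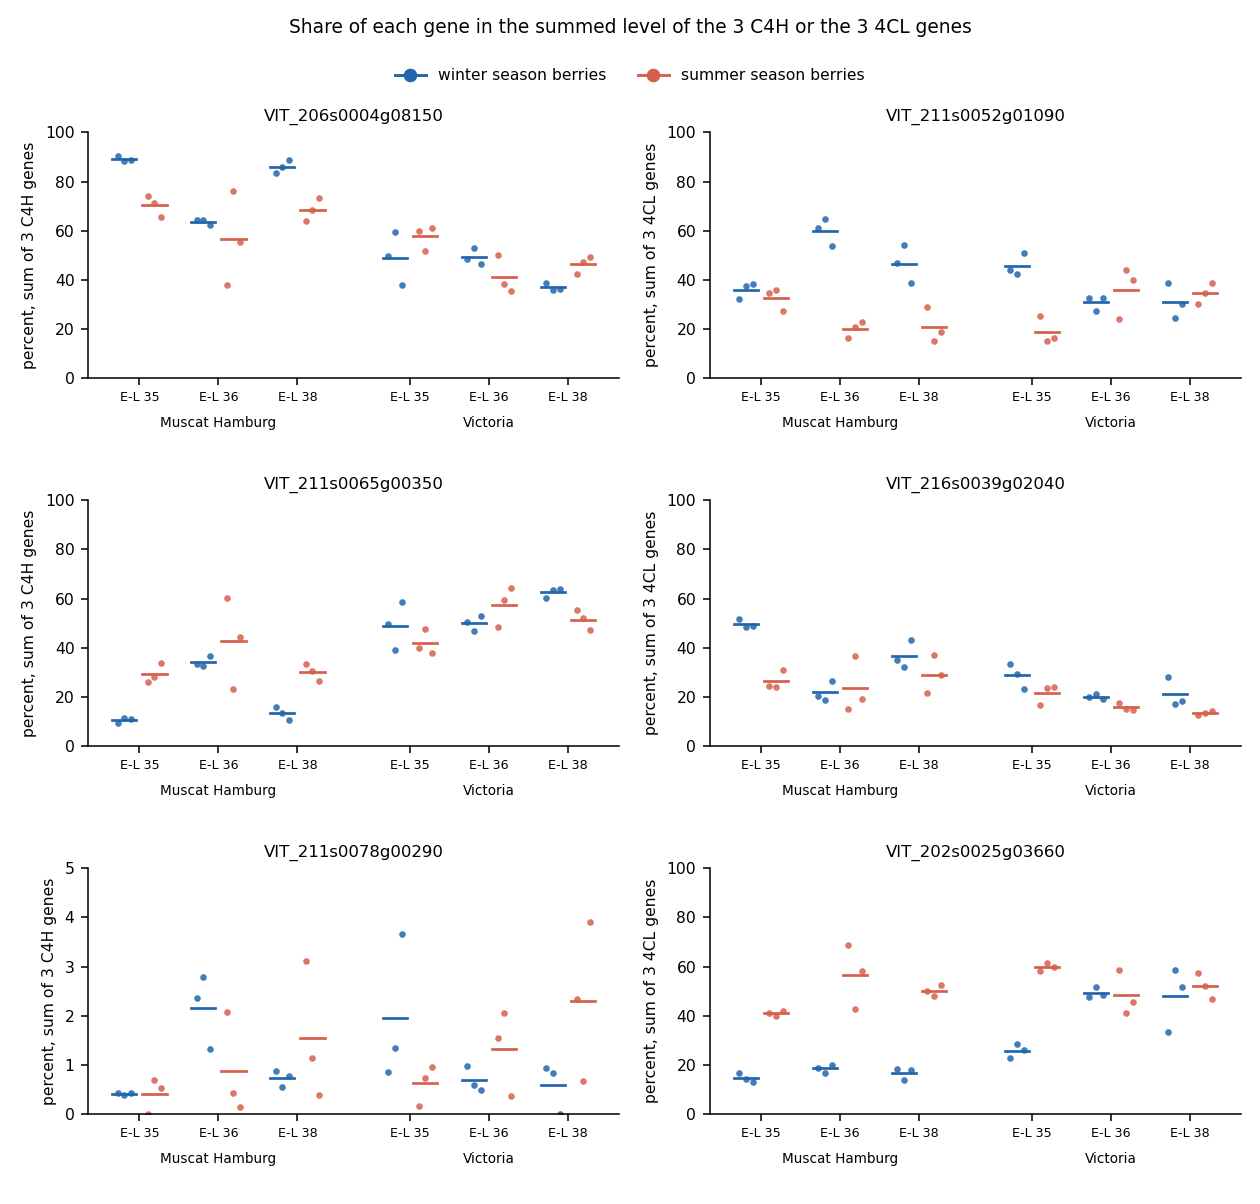
Share of each gene in the summed FPKM of the 3 C4H genes or of the 3 4CL genes shown, in percent, in each library. The 4CL sum leaves out VIT_216s0050g00390, a 4CL gene at group means of 33.3 to 87.0 FPKM. Points are libraries and bars are means of 3, and the axis of VIT_211s0078g00290 ends at 5 percent. VIT_206s0004g08150 had its highest shares in the winter berries of ‘Muscat Hamburg’ at E-L 35 and E-L 38.

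The 3 4CL genes were set against their own sum, which leaves out VIT_216s0050g00390 and so is not the level of all 4CL genes. In ‘Muscat Hamburg’ VIT_202s0025g03660 made up 14.4 ± 1.82, 18.5 ± 1.70 and 16.7 ± 2.47 percent of the summed FPKM of the 3 4CL genes in its winter berries at the 3 stages in turn, and 41.0 ± 0.916, 56.5 ± 13.2 and 50.2 ± 2.27 percent in the summer berries (mean ± SD, n = 3). In ‘Victoria’ its share was 25.7 ± 2.94, 49.2 ± 2.09 and 47.8 ± 13.1 percent in winter and 59.8 ± 1.59, 48.4 ± 9.18 and 52.1 ± 5.32 percent in summer. The winter share was thus the smaller by more than the SD at all stages of ‘Muscat Hamburg’ and at E-L 35 of ‘Victoria’. In the winter berries of ‘Muscat Hamburg’ VIT_216s0039g02040 held the largest part of the 3 at E-L 35 (49.7%) and VIT_211s0052g01090 at E-L 36 (59.7%) and E-L 38 (46.6%). The summed level of the 3 4CL genes was 38.2, 45.7 and 38.4 FPKM in these winter groups and 11.8, 21.7 and 30.6 FPKM in the summer groups, and that of the C4H genes was 78.2, 105 and 87.6 FPKM in winter and 17.1, 25.9 and 43.4 FPKM in summer. In ‘Victoria’ the 4CL sum was 86.7, 30.5 and 22.9 FPKM in winter and 31.9, 50.2 and 41.0 FPKM in summer, and the C4H sum was 114, 34.0 and 18.9 FPKM in winter and 10.2, 36.8 and 23.6 FPKM in summer.

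The neighbouring steps of the pathway were described from the 18 other upstream genes that the study listed, 11 of PAL, 1 of 4CL, 2 of CHS, 2 of chalcone isomerase (CHI) and 2 of flavanone 3-hydroxylase (F3H). The study chose this list on the same samples, so its direction is not independent evidence. Of all genes, 4.15%, 9.80% and 8.90% were called higher in ‘Muscat Hamburg’ at the 3 stages in turn, and 1.86%, 8.97% and 11.1% lower. In ‘Victoria’ these shares were 8.44%, 9.96% and 10.9% higher and 8.87%, 13.6% and 15.9% lower. In ‘Muscat Hamburg’ 12, 16 and 12 of the 18 were called higher in winter at the 3 stages in turn, and 0 were called lower. In ‘Victoria’ 16, 6 and 5 were called higher and 0, 1 and 2 lower. Their median log2 fold change in ‘Muscat Hamburg’ was 1.92 at E-L 35, or 1.80 with 2 PAL genes set at 3 counts in the season where no library passed that number, 2.09 at E-L 36 and 1.62 at E-L 38. In ‘Victoria’ it was 3.26, 0.30 and 0.12.

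The PAL genes, the step before C4H, were called higher in winter in 6, 11 and 7 of 11 cases in ‘Muscat Hamburg’ and in 11, 2 and 1 of 11 in ‘Victoria’, where 2 were called lower at E-L 38. Of all genes, 9.96% and 10.9% were called higher in ‘Victoria’ at E-L 36 and E-L 38, and 15.9% lower at E-L 38. The PAL counts at E-L 38 of ‘Victoria’ were near those shares. The 6 genes of CHS, CHI and F3H, the steps after 4CL, were called higher in 6, 5 and 5 cases in ‘Muscat Hamburg’ and in 5, 3 and 4 in ‘Victoria’, where 1 was called lower at E-L 36. At E-L 38 of ‘Victoria’ the median log2 fold change was -0.98 for the PAL genes, -0.87 for the 6 C4H and 4CL genes and 1.57 for the CHS, CHI and F3H genes. There 8 of the 11 PAL genes were not called, and the PAL values ran from -2.77 to 1.71. Positive values belonged, among others, to VIT_213s0019g04460 (1.71, called) and VIT_206s0004g02620 (1.10, not called). These had the highest group means of the PAL genes, 81.2 and 75.1 FPKM, both in ‘Muscat Hamburg’ winter berries. VIT_216s0050g00390, the further 4CL gene of that list, had group means of 33.3 to 87.0 FPKM, above most means of the 3 4CL genes described here. It was called in 1 of the 6 season comparisons, at E-L 36 of ‘Victoria’ (log2 fold change 1.44, SE 0.24, adjusted p = 1.64e-05).

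**Figure D4:**
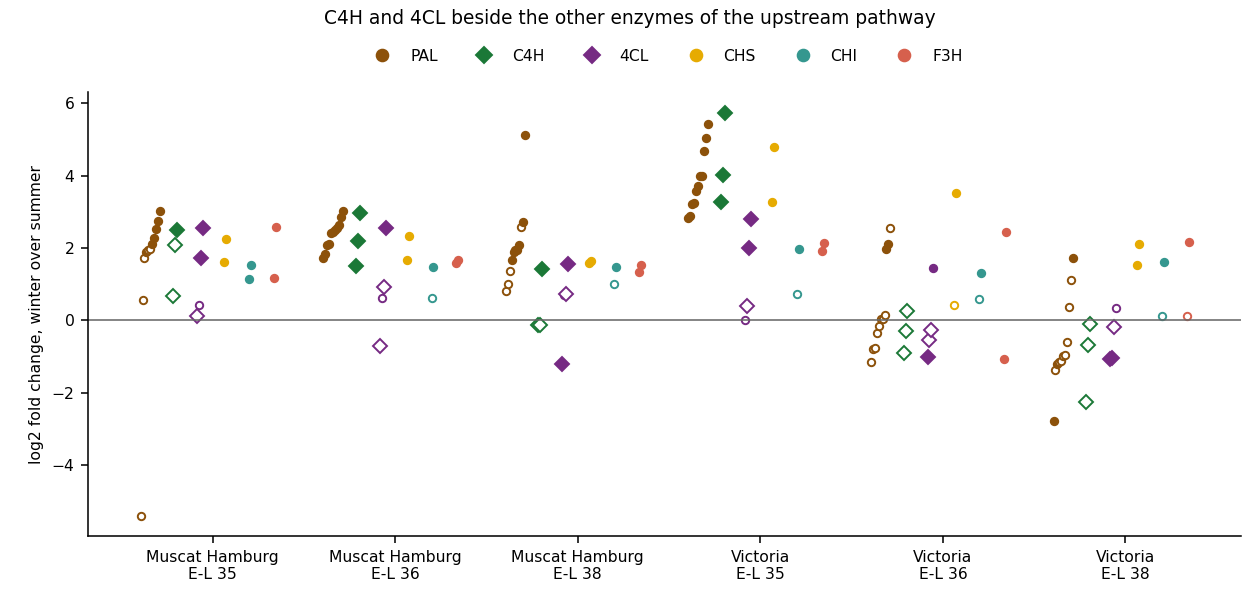
Log2 fold change of winter over summer for 24 genes of the upstream pathway, arranged by enzyme in pathway order, in each variety and stage. Diamonds are the 6 C4H and 4CL genes, circles the 18 other genes, and filled symbols were called. At E-L 38 of ‘Victoria’ the PAL genes had a median of -0.98, with 8 of 11 not called, and the CHS, CHI and F3H genes a median of 1.57.

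Likeness of pattern was measured as Pearson's r over the 12 group means of log2(FPKM + 1). These values share the libraries and are a description with no test. Among the 6 genes r ran over -0.40, for VIT_206s0004g08150 with VIT_202s0025g03660, to 0.87, for VIT_211s0065g00350 with VIT_211s0078g00290, a pair whose reads were divided between them. VIT_206s0004g08150 was most like VIT_216s0039g02040 (0.80), and VIT_211s0052g01090 was like VIT_211s0078g00290 (0.83) and VIT_211s0065g00350 (0.80). VIT_216s0039g02040 and VIT_202s0025g03660 showed no likeness (0.01).

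The search was then widened to 18797 genes with a group mean of at least 1 FPKM in some group. The nearest gene to VIT_211s0052g01090 was VIT_208s0040g01710 (0.974), a PAL gene of the upstream list. It was followed by VIT_207s0005g03230 (0.948) and VIT_216s0100g01170 (0.934). VIT_206s0004g08150 was nearest to VIT_208s0040g00440 (0.932), VIT_200s0391g00070 (0.920) and VIT_202s0012g01570 (0.912), and VIT_216s0039g02040 to VIT_206s0061g01300 (0.903), VIT_208s0007g05430 (0.870) and VIT_218s0001g04980 (0.866). The sources used here give no annotation for these identifiers. VIT_211s0065g00350 was nearest to VIT_216s0100g01020 (0.929), VIT_216s0100g00880 (0.928) and VIT_216s0100g00770 (0.925), whose identifiers share a prefix, and VIT_211s0078g00290 to VIT_205s0077g01690 (0.934), VIT_216s0100g00950 (0.912) and VIT_206s0009g02590 (0.908). The same prefix was thus also found among the 3 nearest genes of VIT_211s0078g00290 and, with VIT_216s0100g01170, of VIT_211s0052g01090. VIT_202s0025g03660 was nearest to VIT_203s0097g00240 (0.926), VIT_208s0058g00820 (0.909) and VIT_209s0018g00780 (0.907), so that no gene stood among the 3 nearest of more than 1 of the 6.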

How the data were processed

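Berries of ‘Muscat Hamburg’ and ‘Victoria’ were measured by RNA-seq in 36 libraries, whose variety, season and stage were read from the labels. According to its methods, the study used the 12X V2 version of the grapevine genome, and the submitters' processing notes name Bowtie with no version. For every gene above 0, the deposited lists give an expected count and an FPKM value made by the authors, under the headings of an RSEM gene table. The program that counted is not given in the sources used here. A gene missing from a list was taken as 0. Lists held 21184 to 23569 genes, and library totals were 5624449 to 18606068 counts. A table of the series with 36 columns of FPKM values, whose headings matched no sample label, was not used.

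Expected counts, rounded to whole numbers, went into edgeR 4.0.16 (R 4.3.3) with filterByExpr (19736 of 28119 genes kept, all 6 genes among them), TMM scaling and 1 quasi-likelihood fit of the 12 groups. The p-values were adjusted over all genes kept by the method of Benjamini and Hochberg. To be called, a gene had to reach an adjusted p of 0.05 and a fold change of 2. Each SE is the absolute log2 value over the root of the F statistic. Differences between season effects were contrasts of the same fit. Alternatives were DESeq2 1.42.0, RLE size factors, library size alone, no filter, a minimum of 10 counts throughout, limma 3.58.1 on log2(FPKM + 1) and log2(FPKM + 0.1), fits of only the libraries compared, a replicate block, no fold change condition and leaving out each library. Leaving out 2 summer libraries of E-L 36 and adding the counts of the 2 C4H copies that share reads were chosen after the data were seen. The edgeR, DESeq2 and limma steps were tested on simulated data.

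A group with at most 3 counts in each library was taken as near the limit of detection, and the ratio of its counts was given with a 95% interval for counting error only. The genes named were the 6 members, the 3 genes most like each and exceptions to a statement. The members and lists were chosen with earlier results of these data known. Lists of seed, green tissue and further family genes, and promoter and protein motifs, were not analysed here, since 0 of 28119 identifiers matched the RefSeq table used for descriptions.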

Additional observations from a re-analysis of the deposited data

Results flagged for a closer look

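The season effect differed between groups by the contrast of the edgeR fit in 23 cases, each past an adjusted p of 0.05 and a difference of at least 1 on the log2 scale. Between the varieties, as ‘Muscat Hamburg’ minus ‘Victoria’, the difference at E-L 35 was -3.34 for VIT_211s0065g00350. At E-L 36 it was 1.93 for VIT_206s0004g08150, 3.86 for VIT_211s0078g00290, 1.81 for VIT_211s0065g00350, 3.56 for VIT_211s0052g01090 and 1.19 for VIT_216s0039g02040. At E-L 38 it was 2.11 for VIT_206s0004g08150 and 2.64 for VIT_211s0052g01090.

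Between stages of ‘Muscat Hamburg’ the season effect at E-L 36 minus that at E-L 35 was -1.62 for VIT_216s0039g02040. The effect at E-L 38 minus that at E-L 35 was -1.07 for VIT_206s0004g08150, -1.80 for VIT_216s0039g02040 and -1.33 for VIT_202s0025g03660. Between stages of ‘Victoria’ the difference at E-L 36 was -3.02 for VIT_206s0004g08150, -6.63 for VIT_211s0078g00290, -4.31 for VIT_211s0065g00350, -3.80 for VIT_211s0052g01090 and -2.27 for VIT_216s0039g02040. At E-L 38 it was -3.97 for VIT_206s0004g08150, -8.00 for VIT_211s0078g00290, -4.10 for VIT_211s0065g00350, -3.88 for VIT_211s0052g01090, -2.18 for VIT_216s0039g02040 and -1.44 for VIT_202s0025g03660. The contrasts between stages of a variety share the libraries of E-L 35, and the winter replicate 3 of ‘Victoria’ at that stage was the highest of its group for all 6 genes.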

How the results depend on the processing

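Leaving out each library in turn gave 9 to 10 calls higher in winter in ‘Muscat Hamburg’ (9 in the full fit) and 1 to 2 lower (1). In ‘Victoria’ it gave 5 to 5 higher at E-L 35 (5) and 1 to 3 lower at E-L 36 and E-L 38 together (3), with 1 without summer replicate 1 of E-L 38. Differences of the season effect between the varieties gave 4 to 8 calls on the higher side (7), with 4 without summer replicate 3 of ‘Muscat Hamburg’ or summer replicate 2 of ‘Victoria’ at E-L 36, and 1 to 2 on the lower side (1). Differences between stages gave 14 to 16 lower (15). Stage changes gave 8 to 9 higher (9) and 6 to 8 lower (7), and variety differences 8 to 9 higher (9) and 5 to 9 lower (7). With no fold change condition 2 calls were lower in winter in ‘Muscat Hamburg’. The 3 lower calls of ‘Victoria’ at E-L 36 and E-L 38 became 0 with limma on log2(FPKM + 1), with or without the filter, and 1 on log2(FPKM + 0.1). The fit of only the libraries compared gave 4 higher calls between the varieties. Without the 2 summer libraries of E-L 36, 1 difference between stages was called higher, against 0 in the full fit. The cause was not tested.

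Same-numbered winter and summer libraries of a variety and stage deviated together in none of 18 pairs of libraries (correlations of -0.19 to 0.03). Same-numbered libraries of different stages or varieties were not checked in this way. With a replicate block the counts of calls were as in the fit without it: 9 higher and 1 lower in ‘Muscat Hamburg’, 5 higher at E-L 35 of ‘Victoria’ and 3 lower later, 7 higher and 1 lower between the varieties, 15 lower between stages, 9 higher and 7 lower for stage changes, and 9 higher and 7 lower between varieties within a season.

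The signs that turned belonged to uncalled differences. In brackets stand the value of the full fit and, where leaving out a library turned the sign, the lowest and highest such value. Among the varieties, ‘Muscat Hamburg’ is set over ‘Victoria’. For VIT_206s0004g08150, E-L 36 over E-L 35 in ‘Muscat Hamburg’ winter (0.03, -0.06 to 0.18) became -0.05 with library size alone and -0.09 with limma, and the summer varieties at E-L 36 (0.10, -0.09 to 0.31) became -0.07, -0.04 and, without the 2 summer libraries, -0.06. For VIT_211s0065g00350 the winter varieties at E-L 38 (0.08, -0.08 to 0.39) became -0.02 with library size alone. Its other turns came only from leaving out a library: the season effect at E-L 38 in ‘Muscat Hamburg’ (-0.14, -0.31 to 0.00) and ‘Victoria’ (-0.09, -0.41 to 0.07), their contrast (-0.04, -0.21 to 0.27), E-L 38 over E-L 36 in ‘Muscat Hamburg’ summer (0.02, -0.35 to 0.73) and the summer varieties at E-L 38 (0.12, -0.01 to 0.29).

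For VIT_211s0078g00290 the season effect at E-L 38 of ‘Muscat Hamburg’ (-0.14, -0.67 to 0.94) became 0.22 with limma on log2(FPKM + 0.1), and single libraries turned that at E-L 36 of ‘Victoria’ (-0.89, -1.28 to 0.06), E-L 38 over E-L 36 in ‘Victoria’ summer (0.35, -0.41 to 1.30) and the summer varieties at each stage (0.52, -0.12 to 1.07, -0.58, -2.40 to 0.37 and 0.24, -0.85 to 1.00). For VIT_202s0025g03660 the varieties' season contrast at E-L 36 (-0.17, -0.45 to 0.34) became 0.02 or 0.00 with limma and 0.56 without the 2 summer libraries. Single libraries turned that contrast at E-L 35 (-0.27, -0.44 to 0.09) and E-L 38 over E-L 36 in the summer berries of ‘Muscat Hamburg’ (0.13, -0.16 to 0.63) and ‘Victoria’ (-0.05, -0.28 to 0.14).

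For VIT_211s0052g01090 they turned the stage contrast of ‘Muscat Hamburg’ at E-L 38 (-0.15, -0.36 to 0.22), E-L 38 over E-L 36 in summer of ‘Muscat Hamburg’ (0.36, -0.02 to 0.56) and of ‘Victoria’ (-0.36, -0.79 to 0.13), and the summer varieties at E-L 35 (-0.45, -0.67 to 0.00). For VIT_216s0039g02040 they turned the season effect in ‘Victoria’ at E-L 36 (-0.27, -0.54 to 0.02) and at E-L 38 (-0.18, -0.65 to 0.03).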
